A study of Mus musculus with 6 samples.

Results

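Neutrophils are short-lived white blood cells that travel in the blood, and their transcripts can serve as an index of blood in a tissue sample. The data on 10 mouse genes that mark these cells were examined in RNA of the optic nerve. The genes were taken by symbol from a fixed list, and all 10 were found among the 52636 genes of the expression table: S100a8, S100a9, Ngp, Camp, Ltf, Lcn2, Mmp8, Mpo, Elane and Retnlg. The RNA came from 6 libraries of ribosomal-RNA-depleted, stranded total RNA. Of these, 3 libraries carry the treatment label mCherry, the name of a red fluorescent protein. The other 3 carry the label of a mutant human ND6, written ND6T14484C, and are called hND6. ND6, which mitochondrial DNA normally encodes, belongs to complex I of the respiratory chain. The protocol text is the same for both groups and describes injection of the eyes with lentivirus carrying the mutant human gene, so what was injected in the mCherry group is not stated. Strain, age, the promoter of the delivered gene and whether a library is 1 animal or a pool are not given in the sources used here. The p-values therefore rest on library spread, part of which may be technical.

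A neutrophil fills its granules in stages while it matures in the bone marrow. Azurophil granules come early and hold myeloperoxidase and serine proteases such as neutrophil elastase. Specific and gelatinase granules follow and hold lactoferrin, cathelicidin, neutrophil collagenase and lipocalin 2, which bind iron or iron carriers, disrupt microbes or cut collagen. The cytosol of the mature cell is rich in S100a8 and S100a9, which pair to form the calcium- and zinc-binding protein calprotectin. Transcription factors of the C/EBP family and PU.1 drive many of these genes. Healthy central nervous tissue holds few neutrophils outside its vessels. Lcn2 is not made by neutrophils alone, since reactive astrocytes and endothelium also make it.

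The genes lie on 6 chromosomes, but several are neighbours. Camp, Ngp and Ltf fall within 1195 kb of chromosome 9 (109847379 to 111042767 of the mouse build mm10, per the deposited gene table). S100a8 and S100a9 fall within 26.7 kb of chromosome 3 (90668978 to 90695721). No member overlaps another listed gene on its own strand. Mpo alone overlaps one on the opposite strand, the predicted gene Gm11505. RefSeq promoter windows (GRCm38.p6) were matched for all 10 members. The 250 bases before the RefSeq start site are shown for the 3 chromosome 9 neighbours and the calprotectin pair. The levels of these moved together over the libraries. Lcn2, whose level did not move with them, is also shown. By the deposited gene table the start lies inside the windows of Ngp, Camp, S100a8 and Lcn2, so these hold bases of the gene. The windows are chr9:110419558-110419807, plus strand for Ngp, chr9:109849457-109849706, minus strand for Camp and chr9:111019042-111019291, plus strand for Ltf. They are chr3:90668821-90669070, plus strand for S100a8, chr3:90695722-90695971, minus strand for S100a9 and chr2:32387740-32387989, minus strand for Lcn2. Capitals mark matches, on either strand, to a C/EBP-type motif (TTGCNNAA, or TTNNGCAA on the other strand), a PU.1 motif (GAGGAAG or CTTCCTC) and the TATA box letters TATAAA (searched on the gene's strand only).
Ngp: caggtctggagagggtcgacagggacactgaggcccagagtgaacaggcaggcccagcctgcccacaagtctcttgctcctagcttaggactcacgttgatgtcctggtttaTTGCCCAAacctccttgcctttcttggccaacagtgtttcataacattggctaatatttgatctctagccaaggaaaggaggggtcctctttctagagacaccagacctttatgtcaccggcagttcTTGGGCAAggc
Camp: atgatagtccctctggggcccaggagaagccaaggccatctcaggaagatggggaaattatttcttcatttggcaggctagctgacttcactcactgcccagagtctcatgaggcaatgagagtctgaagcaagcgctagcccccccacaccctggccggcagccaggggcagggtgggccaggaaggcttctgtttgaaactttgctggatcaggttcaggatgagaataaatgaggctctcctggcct
Ltf: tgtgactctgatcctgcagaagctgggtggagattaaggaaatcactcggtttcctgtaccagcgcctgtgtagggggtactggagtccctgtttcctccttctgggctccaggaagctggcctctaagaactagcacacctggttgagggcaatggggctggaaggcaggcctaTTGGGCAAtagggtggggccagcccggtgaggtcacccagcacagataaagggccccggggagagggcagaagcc
S100a8: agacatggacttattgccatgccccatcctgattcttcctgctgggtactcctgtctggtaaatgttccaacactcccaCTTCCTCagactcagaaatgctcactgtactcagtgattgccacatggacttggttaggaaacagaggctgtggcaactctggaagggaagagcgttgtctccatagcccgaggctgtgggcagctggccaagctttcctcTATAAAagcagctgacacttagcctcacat
S100a9: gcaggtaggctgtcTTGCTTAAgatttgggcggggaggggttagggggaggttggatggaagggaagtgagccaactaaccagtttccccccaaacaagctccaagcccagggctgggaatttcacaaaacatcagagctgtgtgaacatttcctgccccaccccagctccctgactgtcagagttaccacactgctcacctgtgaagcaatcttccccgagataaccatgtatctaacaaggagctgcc
Lcn2: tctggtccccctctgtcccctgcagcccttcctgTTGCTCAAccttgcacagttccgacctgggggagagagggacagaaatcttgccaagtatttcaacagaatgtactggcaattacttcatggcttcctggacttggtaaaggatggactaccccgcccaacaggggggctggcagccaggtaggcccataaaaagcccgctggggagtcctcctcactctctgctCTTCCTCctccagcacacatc
The C/EBP-type letters were found in 6 of the 10 windows (Ngp, Ltf, Lcn2, Mmp8, S100a9 and Retnlg), against 9.56% of 32851 RefSeq promoter windows of the same length. The PU.1 letters were found in 5 of 10 (Mpo, Elane, Lcn2, Mmp8 and S100a8), against 10.6% of all windows. TATAAA was found in 1 of 10, S100a8, against 7.59%. The shown window of Camp holds none of these letters. A match is a description of the letters and not of a bound site.

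The values are FPKM, fragments per kilobase of exon scaled to mapped reads, so levels of different genes can be compared per length. Whole reads could be recovered from them, and the reads in genes ran from 20253637 (hND6 2) to 34758873 (mCherry 2) per library. All 9 optic nerve markers were present in every library: the myelin gene Mbp lay between 1818 and 3009 FPKM and the astrocyte water channel Aqp4 between 59.3 and 98.2 FPKM. Some libraries stood apart. The 7 neuronal markers summed to 608 FPKM in mCherry 3 and 196 in hND6 1, and to at most 57.6 in the others. The 6 photoreceptor markers summed to 192 FPKM in hND6 2 and to at most 6.13 elsewhere. The macrophage and neutrophil lysozyme Lyz2 stood at 244 FPKM in mCherry 1 and at 39.1 to 75.3 in the others. In bulk RNA of this kind, fewer neutrophils and less RNA per neutrophil cannot be told apart.

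None of the 10 neutrophil genes separated the groups. The 10 members had 2956 reads in all, and 7 of them averaged at least 0.5 FPKM over the libraries and were tested: S100a8, S100a9, Ngp, Camp, Ltf, Lcn2 and Retnlg. Each of these 7 averaged above 0.5 FPKM in both groups, so none entered the test through 1 group alone. None passed an adjusted p of 0.05 in limma, a linear model fitted to log2(FPKM + 0.5) of all 16157 tested genes (Benjamini-Hochberg adjustment), and none had an unadjusted p under 0.05. The background was 0.0433% of tested genes called in either direction, and 15.2% with an unadjusted p under 0.05. Member log2 fold changes, hND6 minus mCherry, ran from -0.20 to 0.12 with a median of -0.09, beside a median of -0.01 over all tested genes. The groups overlapped for all 10 members, whereas they did not overlap for 22.8% of tested genes (12.6% higher and 10.2% lower in hND6). Of the 7 tested members 3 had a fold change above 0, as did 48.6% of tested genes. A missed threshold does not show equality, since the 95% intervals of the 7 fold changes reached from -1.600 to 1.397 on the log2 scale.

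S100a9, the more abundant partner of the calprotectin pair, had the highest mean of the 10 members at 6.64 FPKM. It stood at 5.33, 7.85 and 4.72 FPKM in mCherry 1 to 3 and at 11.3, 8.18 and 2.53 FPKM in hND6 1 to 3. Both the highest and the lowest library were in the hND6 group, and the mCherry values lay between them. The group means were 7.32 ± 4.43 and 5.97 ± 1.66 FPKM (SD, n = 3 each). On the log2 scale they differed by 0.09 ± 0.50 (SE, adjusted p = 0.944 in limma). S100a8, its partner, stood at 2.17, 4.90 and 3.36 FPKM in mCherry and at 6.85, 3.12 and 0.963 FPKM in hND6. The order of the hND6 libraries was the same as for S100a9, with hND6 1 at 7.11 times hND6 3. The S100a8 fold change was -0.17 ± 0.59 (SE; limma adjusted p = 0.912). The exact Poisson 95% interval of S100a8 was 5.65 to 8.23 FPKM in hND6 1 (114 reads) and 0.462 to 1.77 FPKM in hND6 3 (10 reads). These libraries were picked as the highest and the lowest, and the intervals treat reads as independent. The gap between them therefore carries no test. S100a9 exceeded S100a8 in every library, by 1.50 to 2.80 reads to 1, and all 6 binomial 95% intervals of that ratio held the values from 1.83 to 2.23. Stressed skin epithelium also makes both genes. Its basal keratins were nearly absent, with Krt5 listed at 0 in 5 libraries and Krt14 in 4, and at most 18 reads. All 7 genes of the epithelial list had a read, and they summed to 12.8 to 18.8 FPKM in mCherry and 19.6 to 19.8 in hND6. Most of that sum was Cdh1, an adhesion molecule not restricted to skin, and the next most abundant was the keratin Krt10, at 0.299 to 0.942 FPKM. The part of epithelium in the calprotectin level was not tested.

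Of the 5 specific and gelatinase granule genes, Ngp, Camp and Ltf were highest and lowest in the same libraries as the calprotectin pair. Mmp8 shared only their lowest library, and Lcn2 neither. Ngp, a granule protein of the cystatin fold, stood at 2.21, 2.91 and 2.04 FPKM in mCherry and at 5.28, 1.65 and 1.07 FPKM in hND6. The mCherry values lay close together and inside the range of hND6. Its log2 fold change was -0.09 ± 0.48 (SE; limma adjusted p = 0.946). Camp, the cathelicidin precursor, stood at 0.913, 1.11 and 0.975 FPKM in mCherry and at 2.16, 0.867 and 0.679 FPKM in hND6. Only hND6 1 lay above the mCherry libraries for both Camp and Ngp, and the other 2 hND6 libraries lay below them. The log2 fold change of Camp was 0.12 ± 0.33 (SE; limma adjusted p = 0.893). Reads of Ngp and Camp kept a similar ratio, 2.55 to 4.21 Ngp reads per Camp read, and all 6 binomial 95% intervals held the values from 2.93 to 5.39.

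Ltf, the iron-binding lactoferrin, had the widest fold range over libraries of the tested members. It stood at 0.601, 1.62 and 0.851 FPKM in mCherry and at 2.12, 0.719 and 0.171 FPKM in hND6. The highest library, hND6 1, lay at 12.4 times the lowest, hND6 3, with 199 against 10 reads. The log2 fold change was -0.19 ± 0.53 (SE; limma adjusted p = 0.893). The ratio of Ltf to Camp was highest in mCherry 2 and lowest in hND6 3, and these libraries were picked for that. There were 5.25 Ltf reads per Camp read in mCherry 2 (binomial 95% interval 3.49 to 8.17). In hND6 3, with 10 Ltf and 11 Camp reads, there were 0.909 (0.346 to 2.36). The intervals of all libraries but hND6 3 held the values from 3.49 to 4.17. Mmp8, the neutrophil collagenase, averaged 0.262 FPKM and was not tested. It stood at 0.258, 0.448 and 0.160 FPKM in mCherry and at 0.361, 0.188 and 0.154 FPKM in hND6, so that mCherry 2 and hND6 1 were again its highest libraries.

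Lcn2, the lipocalin that captures bacterial iron carriers, followed other libraries than the rest. It stood at 6.34, 1.22 and 4.67 FPKM in mCherry and at 3.19, 2.21 and 5.88 FPKM in hND6. It was highest in mCherry 1 and lowest in mCherry 2, whereas S100a8 was higher in mCherry 2 than in any library but hND6 1, and hND6 3 held more Lcn2 than hND6 1. The groups overlapped fully (log2 fold change 0.02 ± 0.57, SE; limma adjusted p = 0.988). Beside it, 6 of 11 reactive astrocyte genes were also highest in mCherry 1, as were 18.2% of tested genes. The trait was not particular to that list. It held for 6 of 11 T and NK cell, 7 of 17 recruitment, 12 of 45 other neutrophil and 2 of 9 microglia and macrophage genes. None of the 11 reactive astrocyte genes was at 0. Their summed level ran from 1665 to 2355 FPKM in mCherry and from 2122 to 2868 in hND6. The abundant filament genes of that list, Gfap and Vim, were highest in hND6 3. Timp1, an inhibitor of matrix proteases chosen after its values were seen, stood at 11.8, 2.70 and 4.36 FPKM in mCherry and at 5.26, 4.70 and 10.2 FPKM in hND6, so its highest libraries and its lowest were those of Lcn2. What part reactive astrocytes or other cells have in the Lcn2 level was not tested.

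Retnlg, a resistin-like protein secreted by neutrophils, stood at 0.325, 1.54 and 0.895 FPKM in mCherry and at 1.10, 0.582 and 0.385 FPKM in hND6. mCherry 2 was highest and hND6 1 second (log2 fold change -0.20 ± 0.41, SE; limma adjusted p = 0.842). The azurophil genes were barely detected. Mpo, which makes hypochlorous acid, had 45 reads in hND6 1 (0.478 FPKM), 15 in mCherry 2, 6 in hND6 2, 5 in mCherry 3 and none in mCherry 1 and hND6 3. The group ratio of 3.02 in hND6 over mCherry reads per library size (binomial 95% interval 1.77 to 5.34, counting error only) rested on hND6 1. Elane, the neutrophil elastase, had 2 reads in mCherry 2 and none in the other 5 libraries. As a one-sided limit, a count of 0 allows up to 3 reads, which is 0.0890 FPKM of Elane in hND6 1, the deepest of the hND6 libraries, and 0.154 FPKM in hND6 2.

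**Figure D1:**
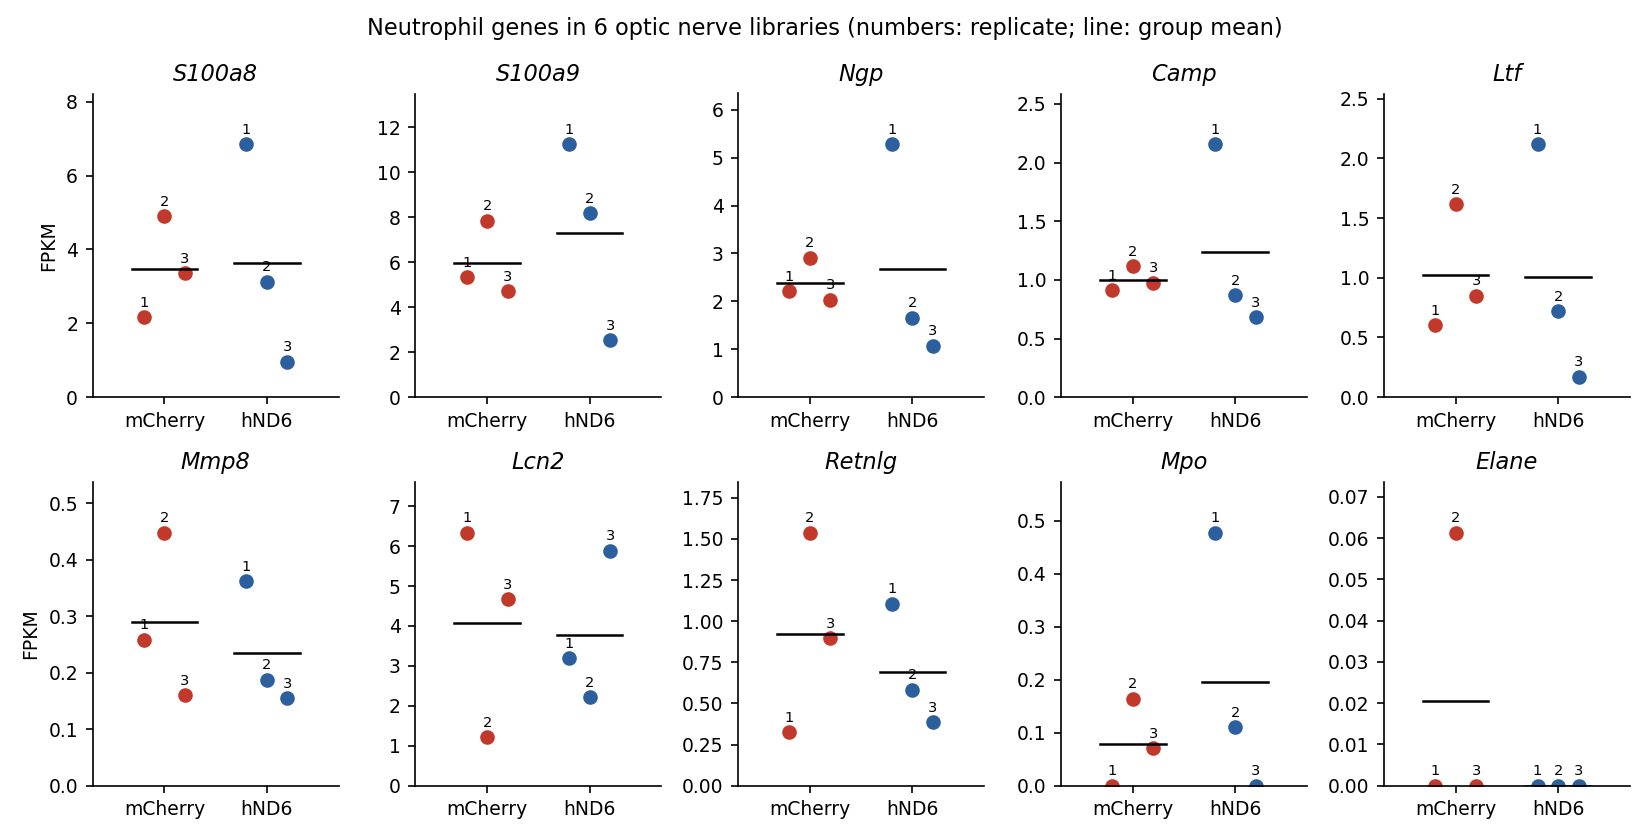
FPKM of the 10 neutrophil genes (vertical axes, each from 0) in the 3 mCherry (red) and 3 hND6 (blue) libraries; digits give the replicate and black lines the group means. The groups overlap in every panel, and in S100a8, S100a9, Ngp, Camp and Ltf the hND6 library 1 is highest and hND6 library 3 lowest.

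Ordered by mean FPKM, the members ran S100a9 (6.64), Lcn2 (3.92), S100a8 (3.56), Ngp (2.53), Camp (1.12), Ltf (1.01), Retnlg (0.805), Mmp8 (0.262), Mpo (0.137) and Elane (0.0102). Ngp exceeded Camp, and Retnlg exceeded Mmp8, in all 6 libraries. The other neighbours in this order changed places in at least 1 library, and Lcn2 exceeded S100a8 in only 3 of 6.

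Several members shared a library pattern within the hND6 group. S100a8, S100a9, Ngp, Camp and Ltf, 5 of the 7 tested, were highest in hND6 1 and lowest in hND6 3, as were 1.29% of all tested genes. The pattern was noticed in these values and carries no test. Within groups the tested members were among the more variable genes: residual SDs ran from 0.45 (Camp) to 0.90 (S100a8) on the log2 scale, at percentiles 84.7 to 94.8 of all tested genes, whose median was 0.19. Leaving out single libraries moved the sign of the small fold changes. Without hND6 1, S100a9 stood at -0.30 and Camp at -0.24 on the log2 scale. Without hND6 3, S100a8 stood at 0.43, Ngp at 0.30 and Ltf at 0.29. Over 19 alternative settings the smallest adjusted p of any member in limma was 0.22. Beside the high values of hND6 1, the same library held 22 of the 25 reads of the mast cell chymase Cma1 (chosen after its values were seen) and the second highest neuronal sum. Of 8 eosinophil, basophil and mast cell genes 3 were highest in hND6 1, as were 8.18% of tested genes, and only 1 of the 8 was tested. The mast cell gene Cpa3 was highest in mCherry 1, with 38 reads against 33 in hND6 1. In mCherry 3, where the neuronal sum was 608 FPKM, the summed level of the 9 members other than Lcn2 was 13.1 FPKM, against 29.6 in hND6 1. Whether other tissue was present in these libraries, and what part it had in the member levels, was not tested.

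**Figure D2:**
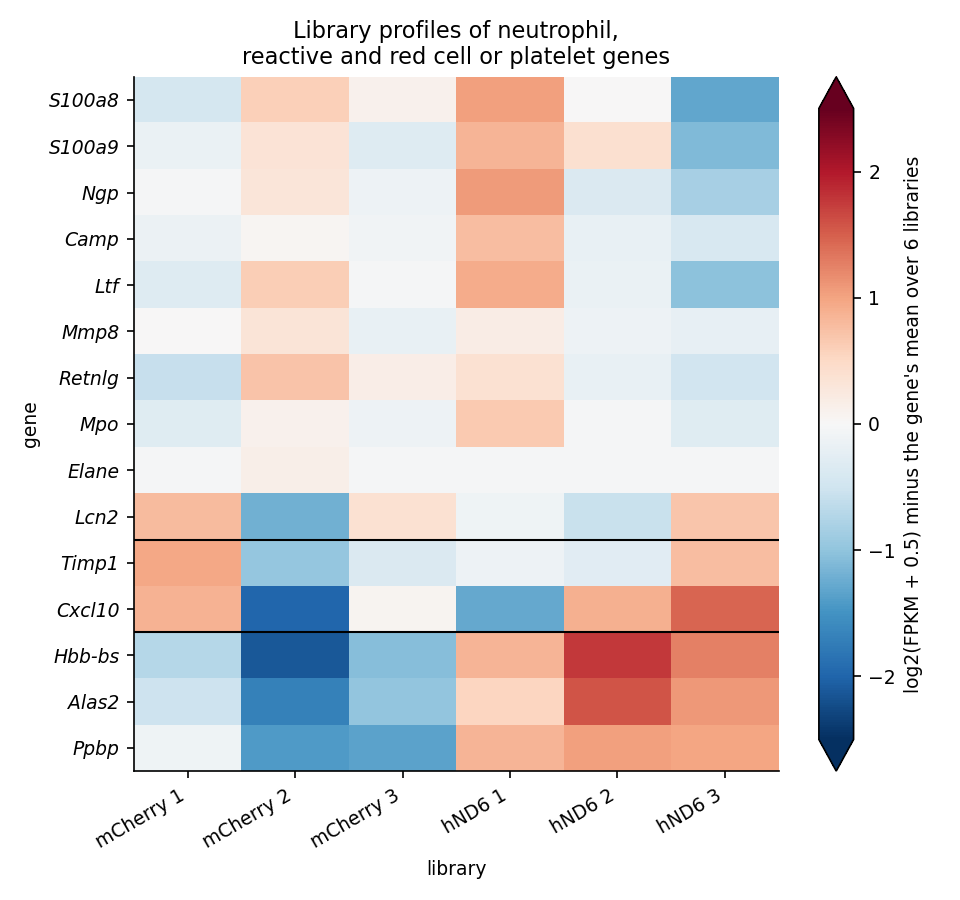
Level of each gene (rows) in each library (columns) as log2(FPKM + 0.5) minus the gene's mean over the 6 libraries, red above and blue below it. The upper 9 rows are highest in hND6 1 or mCherry 2, Lcn2 is nearer to Timp1, and the red cell and platelet genes at the bottom are higher in all 3 hND6 libraries.

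Likeness of profile was the root mean square difference from the averaged profile of S100a8 and S100a9 over the 6 libraries, each gene centred on its mean log2(FPKM + 0.5), among 13671 other tested protein-coding genes. The closest were Slc22a2 (0.24), an organic cation transporter, Sfta2 (0.26), Lamc3 (0.32), a laminin chain of basement membranes, Mansc4 (0.33) and Wdr86 (0.35). Among members, Ltf lay at 0.19, Ngp at 0.31, Camp at 0.41, Retnlg at 0.45 and Lcn2 at 1.26. Slc22a2 stood at 0.810, 0.941 and 0.883 FPKM in mCherry and at 2.17, 1.48 and 0.221 FPKM in hND6. It was highest in hND6 1 and lowest in hND6 3, as the calprotectin pair was.

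As an index of blood, the neutrophil genes did not follow the red cell transcripts. Hbb-bs, the beta globin of red cells, stood at 288, 109 and 226 FPKM in mCherry and at 848, 1608 and 1132.5 FPKM in hND6. All 3 hND6 libraries lay above all 3 mCherry libraries. Its log2 fold change was 2.59 with a 95% interval of 1.604 to 3.57 (limma adjusted p = 0.143), and 0.124% of tested genes had a fold change as large. The upper interval bounds of the 7 tested members, 0.77 for Retnlg to 1.397 for Lcn2, all lay below the lower bound of Hbb-bs. Hba-a1, an alpha globin, had a fold change of 2.48 with an interval of 1.53 to 3.43 (limma adjusted p = 0.143). Of the 7 tested erythroid genes none passed the threshold over all genes, all 7 lay higher with an unadjusted p under 0.05, and their median was 2.45. The intervals of Alas2 (from 1.25), Slc4a1 (from 0.25) and Bpgm (from 0.25), named after their values were seen, began below the upper bounds of some members, so the separation does not hold for them. Among platelet genes, Ppbp, a platelet chemokine chosen after its values were seen, stood at 1.10, 0.139 and 0.180 FPKM in mCherry and at 2.59, 2.99 and 2.90 FPKM in hND6 (log2 fold change 1.91 ± 0.37, SE; limma adjusted p = 0.155). Of 5 tested platelet genes none passed over all genes and 3 had an unadjusted p under 0.05 (median 0.66). Pf4 stood at 3.53 ± 0.296 against 2.15 ± 1.01 FPKM and Itga2b at 2.48 ± 0.240 against 2.16 ± 0.330 FPKM (SD, n = 3 each). Transcripts of B and plasma cells were higher in hND6. The 13 B and plasma cell genes summed to 7.58 to 18.6 FPKM in mCherry and 139 to 386 in hND6, and 4 of the 8 tested passed in limma (Igha, Jchain, Ighg2c and Ighg2b), beside 0.0433% of all tested genes. No gene of the whole table passed with the replicate number as a block, with voom on recovered reads or without mCherry 2, so these 4 calls were lost there. The 8 eosinophil, basophil and mast cell genes summed to 0.835 to 1.77 FPKM in mCherry and 3.90 to 7.48 in hND6, and the 1 tested, Prg2, did not pass. Most of the rise was Prg2, with means of 0.374 (mCherry) and 3.59 FPKM (hND6), beside 1.32 and 5.78 for the sum. The groups overlapped for Epx, Siglecf and Cpa3. No tested T and NK cell or monocyte gene passed. Of 5 tested monocyte genes 1 had an unadjusted p under 0.05, Ly6c2, chosen after its values were seen. It stood at 0.481, 0.147 and 0.899 FPKM in mCherry and at 2.345, 2.52 and 6.04 FPKM in hND6. Its log2 fold change was 1.99 ± 0.42 (SE, limma adjusted p = 0.172). The 5 had a median of 0.04, with 3 above and 2 below 0. Summed over 6 monocyte genes the level was 7.82 to 10.7 FPKM in mCherry and 11.2 to 12.4 in hND6. Of the 6 only Ly6c2 had groups that did not overlap. Its means were 0.509 (mCherry) and 3.63 FPKM (hND6), beside 9.31 and 11.9 for the sum. The part of these cells in the member levels was not tested.

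**Figure D3:**
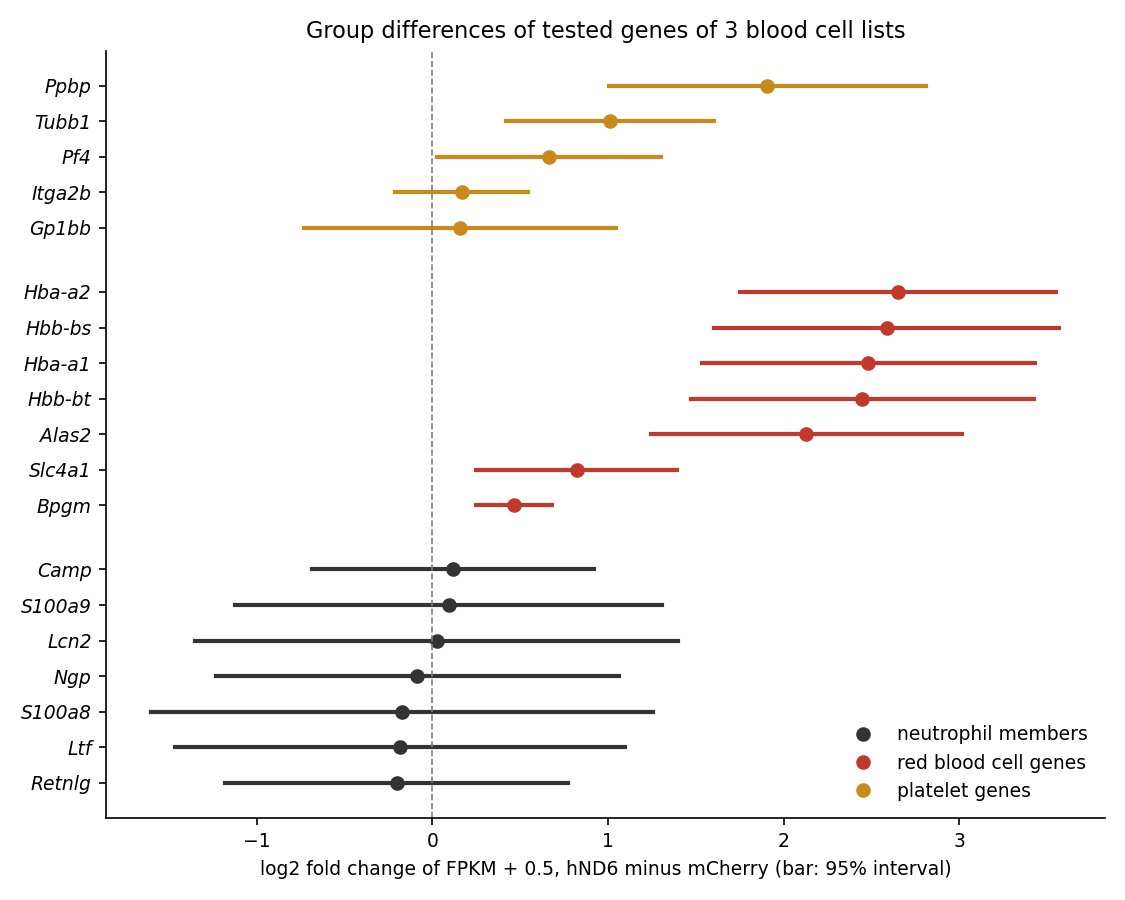
Log2 fold changes (hND6 minus mCherry, points) with 95% intervals from limma (bars) for the tested neutrophil, red blood cell and platelet genes. The 7 neutrophil genes lie around 0, from -0.20 to 0.12, and the 4 globins between 2.45 and 2.65.

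The 9 members other than Lcn2 summed to 11.8, 20.6 and 13.1 FPKM in mCherry and to 29.6, 15.4 and 5.95 FPKM in hND6. The 4 globin genes summed to 460, 176 and 360 FPKM in mCherry and to 1348, 2569 and 1767 FPKM in hND6. The mCherry library with the least globin, mCherry 2, thus held the most neutrophil transcript of its group. Neutrophil FPKM per 1000 globin FPKM came to 25.7, 117 and 36.3 in mCherry and to 22.0, 6.01 and 3.37 in hND6, a 34.7-fold range over libraries. With Lcn2 included, the members summed to 19.2 ± 2.25 FPKM in mCherry and 20.8 ± 10.8 FPKM in hND6 (SD, n = 3 each), a difference smaller than the spread.

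Each member was also set against the globin reads of its own library. Of the 9 members with more than 3 reads in a group, all had a lower mean per globin read in hND6, by 1.69 (Mpo) to 3.10 (Ltf) on the log2 scale. In 5 of them (Ngp, Camp, Lcn2, Mmp8 and S100a9) all hND6 libraries lay below all mCherry libraries (exact two-sided permutation p = 0.1 each, the smallest that 3 against 3 libraries allow; adjusted p = 0.18 over the 9). S100a8, Ltf and Retnlg gave p = 0.2 and Mpo p = 0.6 in the same exact permutation test. The same separation held for 94.3% of all tested genes, so the count describes the globin reads and is no result about the members. With Alas2, an enzyme of red cell haem synthesis, in place of the globins, 3 of the 9 were separated. Without mCherry 1 or without hND6 1, 8 were.

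**Figure D4:**
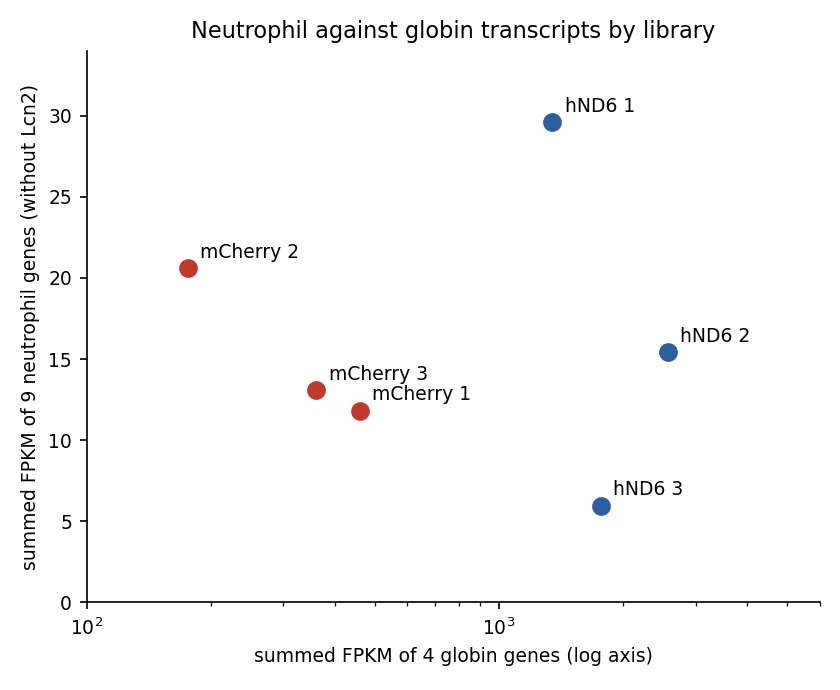
Summed FPKM of the 9 neutrophil genes other than Lcn2 (vertical axis) against summed FPKM of the 4 globin genes (horizontal log axis), 1 point per library. The hND6 libraries (blue) lie to the right at 1348 to 2569 globin FPKM and span 5.95 to 29.6 neutrophil FPKM, a range that holds all mCherry libraries (red).

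No gene of a wider neutrophil list passed either. Of its 45 genes 41 had a read, 17 were tested, and none passed in limma over all genes (4 with an unadjusted p under 0.05). Their fold changes had a median of -0.01, with 8 above and 9 below 0. The mature neutrophil surface protein Ly6g had 3 reads in mCherry 3, 10 in hND6 1 and none elsewhere. The chemokine receptor Cxcr2 had 15, 16 and 0 reads in mCherry and 9, 21 and 5 in hND6. The azurophil proteases Prtn3 and Ctsg averaged 0.478 and 0.0183 FPKM. The gelatinase Mmp9 stood at 0.353, 0.779 and 0.527 FPKM in mCherry and at 0.984, 0.494 and 0.251 FPKM in hND6, so hND6 1 was highest and hND6 3 lowest, as for the calprotectin pair. That order also held for Itgb2l, Padi4 and Il1r2, and these 4 of the 45 were chosen after their values were seen. Of the 17 tested genes of the list it held for 1, Mmp9, and over all tested genes for 1.29%. Itgb2l had 1 read in hND6 2 and 0 in hND6 3, and Il1r2 had 6 and 5. More of the 45 were highest in mCherry 1 (12) than in hND6 1 (9).

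The most abundant genes of this wider list are not restricted to neutrophils, and which cells made them here was not tested. Lyz2, lysozyme of macrophages and neutrophils, stood at 112 ± 115 FPKM in mCherry and 68.2 ± 6.27 in hND6 (SD, n = 3 each), with mCherry 1 far above the rest. Serpinb1a, an inhibitor of neutrophil proteases, had means of 37.1 ± 1.87 FPKM (hND6) and 24.1 ± 5.35 FPKM (mCherry) without overlap (log2 fold change 0.63 ± 0.15, SE; limma adjusted p = 0.193). Anxa1, which restrains neutrophil adhesion, stood at 20.7 ± 1.39 against 15.3 ± 1.18 FPKM, also without overlap (0.42 ± 0.09; limma adjusted p = 0.178). Over the 45 listed genes the groups did not overlap for 4 higher in hND6, Cd177 and Ifitm6 being the others. They did not overlap for 1 lower, Olfm4. The shares over all tested genes were 12.6% higher and 10.2% lower. Slpi, a secreted inhibitor of elastase, stood at 17.1, 27.9 and 22.2 FPKM in mCherry and at 5.40, 6.18 and 20.8 FPKM in hND6 (-1.25 ± 0.50; limma adjusted p = 0.315). Csf3r, the receptor for granulocyte colony-stimulating factor, stood at 9.22 ± 1.87 against 10.4 ± 3.10 FPKM. Its mean over the 6 libraries was above that of any member, although S100a9 exceeded it in hND6 1.

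No signal that draws neutrophils into tissue passed the test. Of 17 genes of recruitment 15 had a read, 8 were tested, and none passed in limma over all genes or had an unadjusted p under 0.05 (median log2 fold change 0.21). The adhesion receptor Vcam1, the most abundant of them, stood at 42.9, 11.1 and 15.7 FPKM in mCherry and at 15.6, 16.3 and 26.3 FPKM in hND6. Cxcl12, a chemokine that retains neutrophils in marrow, stood at 7.70 ± 0.216 FPKM in mCherry and 9.36 ± 1.94 in hND6 (SD, n = 3 each). Csf3, the growth factor of granulocytes, had no read in any library.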

How the data were processed

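Total RNA of mouse optic nerve was measured in 3 mCherry and 3 hND6 libraries. The deposited FPKM values were made by the authors, who list HTSeq, STAR, Trim Galore and CASAVA 1.4, with the builds mm10 and GRCm38 and no roles, per the submitters' processing notes. The tables of single libraries equal the combined table in all 6 cases. Multiplied by exon length, at least 99.99% of values above 0 came out as whole reads (within 0.1 read). Python 3.11.15 and R 4.3.3 with limma 3.58.1 were used. Genes averaging 0.5 FPKM or more were tested on log2(FPKM + 0.5) with limma (intensity trend, Benjamini-Hochberg over all tested genes, threshold 0.05). Fold changes on this scale understate changes of low genes. The fit was tested on simulated data. Read intervals are exact (95%, two-sided), the limit for a count of 0 is 3 reads, and both cover counting error only, since reads without molecular identifiers are not independent molecules. Per-globin values are log2 of (reads + 0.5) over the reads of 4 globins.

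The members and gene lists were chosen with earlier results of these data known. Genes named are all members, the 5 most abundant other neutrophil genes, the 2 most abundant genes of a list set beside a result, any past the threshold, and the 5 genes of most like profile. Others are said to be chosen after their values were seen, apart from defining markers. Alternatives covered pseudocounts, filters, scalings, trend, robust and weighted fits, voom, a replicate block and left-out libraries.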

Additional observations from a re-analysis of the deposited data

How the results depend on the processing

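No neutrophil member and no gene of the wider neutrophil list passed the limma threshold under any of the 19 alternatives run. Of 132 member fold changes under these alternatives 113 kept their sign and 19 changed it, all far from the threshold. Scaling to TPM, which put the all-gene median at -0.14, gave -0.11 for Lcn2 and -0.038 for S100a9. With library weights S100a9 stood at -0.023. With mCherry 3 and hND6 1 both left out, Camp stood at -0.25 and S100a9 at -0.45. Leaving out 1 library at a time gave log2 fold changes from -0.64 to 0.30 for Ngp, -0.24 to 0.35 for Camp, -0.70 to 0.29 for Ltf, -0.57 to 0.42 for Lcn2, -0.73 to 0.43 for S100a8, -0.30 to 0.67 for S100a9 and -0.55 to 0.10 for Retnlg. The count over all genes, 7, was 1 without a filter, 0 with voom on recovered reads (2462 unadjusted), 1 with mCherry 3 and hND6 1 left out, and from 0 (without mCherry 2, 1947 unadjusted) to 131 (without mCherry 3) when 1 library was left out. With the replicate number as a block it was 0 (1789 unadjusted). The labels do not say whether the numbers pair the libraries. Deviations from the group means correlated over genes at -0.42 for number 1, 0.36 for number 2 and -0.20 for number 3. The highest correlation was 0.56, of mCherry 3 with hND6 1. Deviations within so few libraries depend on each other, so these values cannot decide whether the numbers are pairs. The count of members below all mCherry libraries per globin read, 5, was 3 per Alas2 read and ran from 5 to 8 with 1 library left out. The cause of these shifts was not tested. Summed FPKM of the 10 members differed by 1.52 in hND6 minus mCherry, and from -4.50 to 5.98 with 1 library left out. With mCherry 3 and hND6 1 left out, an alternative chosen after the data were seen, it was -5.25. Low counts limit Mpo, Elane, Retnlg and Mmp8 most, and only 6 members had 10 or more reads in every library. Retnlg, which was tested, had 51 reads in mCherry and 35 in hND6, fewer than Mmp8 (65 and 47).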
